A study of Oncorhynchus mykiss with 9 samples.

Results

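Splenic IgM+ B cells of rainbow trout (Oncorhynchus mykiss) that had met TNP-LPS for 24 h were compared with unstimulated control cells of the same culture time, across all genes and gene functions measured by RNA-seq. The comparison takes the 3 TNP-LPS libraries and the 3 control libraries, 6 of the 9 libraries of the series. The remaining 3, from cells cultured with TNP-KLH, entered the filter on reads, the scaling of the libraries and the estimate of the spread, but not the comparison itself. Of the 46585 genes in the count tables, the 31691 with at least 5 reads in at least 1 of the 9 libraries were tested. TNP-LPS is the hapten trinitrophenyl coupled to bacterial lipopolysaccharide, and TNP-KLH carries the same hapten on the protein keyhole limpet hemocyanin. The donors were healthy female trout of 50 to 70 g. The antigen was given to cultures of spleen leukocytes, and the IgM+ B cells were isolated from them by flow cytometry, so other leukocytes were present during the stimulation. The series describes 3 biological replicates per treatment but does not say whether libraries with the same number came from the same fish.

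B cells read antigen with the B cell receptor, a surface immunoglobulin whose signal runs through the CD79 chains, Syk and Src family kinases, adaptors such as BLNK and the protease MALT1. Lipopolysaccharide on a hapten is the classical thymus-independent type 1 antigen of mammals, able to drive B cells without T cell help. A mammalian B cell that leaves rest enlarges, builds ribosomes under the control of Myc and raises its metabolism before it divides or becomes an antibody-secreting cell. Trout carry many duplicated genes from the genome duplication of salmonids, so that a protein is often encoded by several genes with the same description.

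The 9 libraries held 8080787 to 12164154 counted reads each. A gene is called higher or lower here when edgeR's quasi-likelihood test on the counts gave a Benjamini-Hochberg adjusted p under 0.05 over the 31691 genes. With TNP-LPS, 3181 genes rose (10.0% of those tested) and 2133 fell (6.73%), among them 690 higher and 735 lower by at least 4-fold. These percentages are the background against which each gene group is read. The genes called higher took 14.1, 13 and 13.9% of the reads in the control libraries and 31.4, 32.8 and 31.2% with TNP-LPS. For the genes called lower the shares were 10.4, 11.7 and 11.3% in controls and 2.79, 3.41 and 4.03% with TNP-LPS. Since these genes were called on the same libraries, the shares are a description. The median log2 fold change over all tested genes was -0.09. Scaled to library totals in place of TMM factors, it was -0.31, and 2305 genes were called higher and 2860 lower, so that 44.6% of the calls were higher in place of 59.9%. Libraries with the same number deviated together, and with the replicate number as a block 5167 genes rose (16.3%) and 4489 fell (14.2%), including 3180 of the 3181 and 2130 of the 2133 called without it. The CPM ranges of the groups did not overlap for 10331 genes (32.6%). Of the 5314 calls, 3060 (57.6%) held in each of the 9 fits that left out 1 library. The fewest calls, 2404 higher and 1238 lower, came without TNP-LPS replicate 2. In sorted bulk samples, fewer cells of a type and less RNA per cell cannot be told apart, and p-values measure the spread between these libraries.

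Values below are CPM, the reads of a gene relative to the library's reads after TMM scaling, always for replicates 1, 2 and 3 in that order, and fold changes are TNP-LPS over control. Genes given with both an identifier and a fold change stayed called in all 9 fits that left out 1 library, unless an exception is named. Ranges of fold changes without identifiers, as for Aiolos and Ikaros, are not covered by this. Groups had to be free of overlap for a gene to be named, unless stated, so a lack of overlap below is no separate result. Each name is taken from the protein description beside the identifier in the tables, and copies of a gene with the same description may share reads. Gene groups were assembled from words in these descriptions, and their counts of calls are from the fit without the block. Counts that moved by over 1.5 times with the block or with 1 library left out are given at the end of a paragraph. So are groups whose balance of higher and lower turned with the block, without the libraries numbered 2 or when scaled to library totals. Libraries are named there by group and number. Turns with 1 library left out also occurred and are not listed, such as NF-kB genes without control 3 (8 higher and 5 lower). Without the 3 libraries numbered 2, 119 of the 164 counts of the 82 groups moved by over 1.5 times, and with the block 123 did. Over all genes, the block itself raised the calls from 10.0% to 16.3% higher and from 6.73% to 14.2% lower. Block counts of a group are to be read against these shares, and such a move is by itself no result about the group.

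Among the genes that rose, the chemokine gene CCL4 (GSONMG00080018001) had 339, 914 and 476 CPM in the control libraries and 6542, 13702 and 3738 CPM with TNP-LPS, a log2 fold change of 3.79 ± 0.58 SE at an adjusted p of 0.0019. Nucleolin (GSONMG00018656001), which acts in the first steps of ribosome assembly, had 867, 756 and 1079.6 CPM in the control libraries and 4946, 3944 and 3748 CPM with TNP-LPS, a log2 fold change of 2.23 ± 0.21 SE at an adjusted p of 0.00023. Every TNP-LPS library lay above every control library for both genes, and CCL4 spread far more among the TNP-LPS libraries than nucleolin did. Among the genes that fell, integrin beta-7 (GSONMG00056855001), a chain of lymphocyte homing receptors, had 649.9, 1329.9 and 969 CPM in the control libraries and 41.5, 47 and 106 CPM with TNP-LPS, a log2 fold change of -3.92 ± 0.44 SE at an adjusted p of 0.0004. NHS-like protein 2 (GSONMG00045327001), whose mammalian relatives regulate actin at the cell edge, had 489, 785 and 321 CPM in the control libraries and 19.4, 15.1 and 16.7 CPM with TNP-LPS, a log2 fold change of -4.96 ± 0.44 SE at an adjusted p of 0.00023. Neither gene overlapped between the groups, and the highest TNP-LPS value of each was well under the lowest control value.

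Of 82 gene groups, ribosome biogenesis and nucleolus had the highest share of risen genes: 164 of 208 tested genes rose and 5 fell, with a median log2 fold change of 2.00. These genes took 0.941, 0.902 and 1.09% of the reads in control libraries 1, 2 and 3 and 3.18, 3.18 and 2.92% with TNP-LPS. RSL1D1, named ribosomal L1 domain-containing protein 1-like (GSONMG00051525001), a nucleolar protein, had 53.3, 57.9 and 59.7 CPM in the control libraries and 482, 414 and 358 CPM with TNP-LPS, a log2 fold change of 2.88 ± 0.20 SE at an adjusted p of 0.00023. Of the fibrillarin genes, which encode the methyltransferase of box C/D particles that modify rRNA, GSONMG00011154001 had 69.2, 54 and 61.7 CPM in the control libraries and 483, 395 and 358 CPM with TNP-LPS, a log2 fold change of 2.74 ± 0.21 SE at an adjusted p of 0.00023. Another fibrillarin gene (GSONMG00040648001) had 124, 121 and 123 CPM in the control libraries and 786, 588 and 529.5 CPM with TNP-LPS, a log2 fold change of 2.37 ± 0.21 SE at an adjusted p of 0.00023. In all 3, control libraries lay close together and TNP-LPS replicate 1 was the highest. Nucleolar protein 10, nucleolar protein 58, ribosome production factor 2 and the pre-rRNA methyltransferase FTSJ3 rose as well, with log2 fold changes of 2.30 (GSONMG00076581001), 2.59 (GSONMG00065249001), 2.39 (GSONMG00076490001) and 2.53 (GSONMG00027394001). The 5 genes of the group that fell included 2 copies of nucleolar transcription factor 1 (UBTF), the mammalian activator of rRNA gene transcription (GSONMG00011263001, -2.11, and GSONMG00055638001, -1.35), and a nucleophosmin-like gene (GSONMG00029139001, -1.09). Without the 3 libraries numbered 2, these 3 genes were no longer called, and 0 genes of the group were lower. The replicate block gave 8 lower ribosome biogenesis genes in place of 5. With 1 library left out, the 5 lower ribosome biogenesis genes became 3 without TNP-LPS 1, TNP-LPS 2 or TNP-LPS 3.

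Many enzymes that transcribe and modify rRNA and tRNA rose too. Of the RNA polymerase I and III group, 35 of 69 tested genes rose and 6 fell, with a median log2 fold change of 0.97. The largest Pol I subunit RPA1 (GSONMG00062475001) had 27.6, 32.4 and 30.1 CPM in the control libraries and 189.9, 184 and 154 CPM with TNP-LPS, a log2 fold change of 2.55 ± 0.21 SE at an adjusted p of 0.00023. Its partner RPA2 (GSONMG00078075001), which completes the catalytic site, had 20.3, 22.5 and 24.2 CPM in the control libraries and 137, 118 and 119 CPM with TNP-LPS, a log2 fold change of 2.48 ± 0.20 SE at an adjusted p of 0.00023. Both were narrow within each group, and the groups lay far apart. MAF1, the repressor of Pol III transcription in yeast and mammals, moved the other way, with 22.6, 33.6 and 32.4 CPM in the control libraries and 10.1, 7.92 and 10.3 CPM with TNP-LPS for GSONMG00032776001, a log2 fold change of -1.65 ± 0.23 SE at an adjusted p of 0.0012, and its second copy (GSONMG00076943001) at a log2 fold change of -1.61. The Pol III subunit RPC7-like (GSONMG00061127001), also fell, with a log2 fold change of -1.40, while RPC8 (GSONMG00032967001) and RPC4 (GSONMG00027248001) rose by 1.72 and 1.96 on the same scale. Of the tRNA and rRNA modifying enzymes, 49 of 88 tested genes rose and 0 fell, with a median log2 fold change of 1.35. A tRNA cytosine methyltransferase gene (GSONMG00007801001) had 73.1, 68.7 and 65 CPM in the control libraries and 364, 317 and 306 CPM with TNP-LPS, a log2 fold change of 2.26 ± 0.19 SE at an adjusted p of 0.00023. With the replicate block, calls came to 10 lower RNA polymerase I and III genes in place of 6 and 1 lower tRNA and rRNA modifying enzyme in place of 0.

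**Figure D1:**
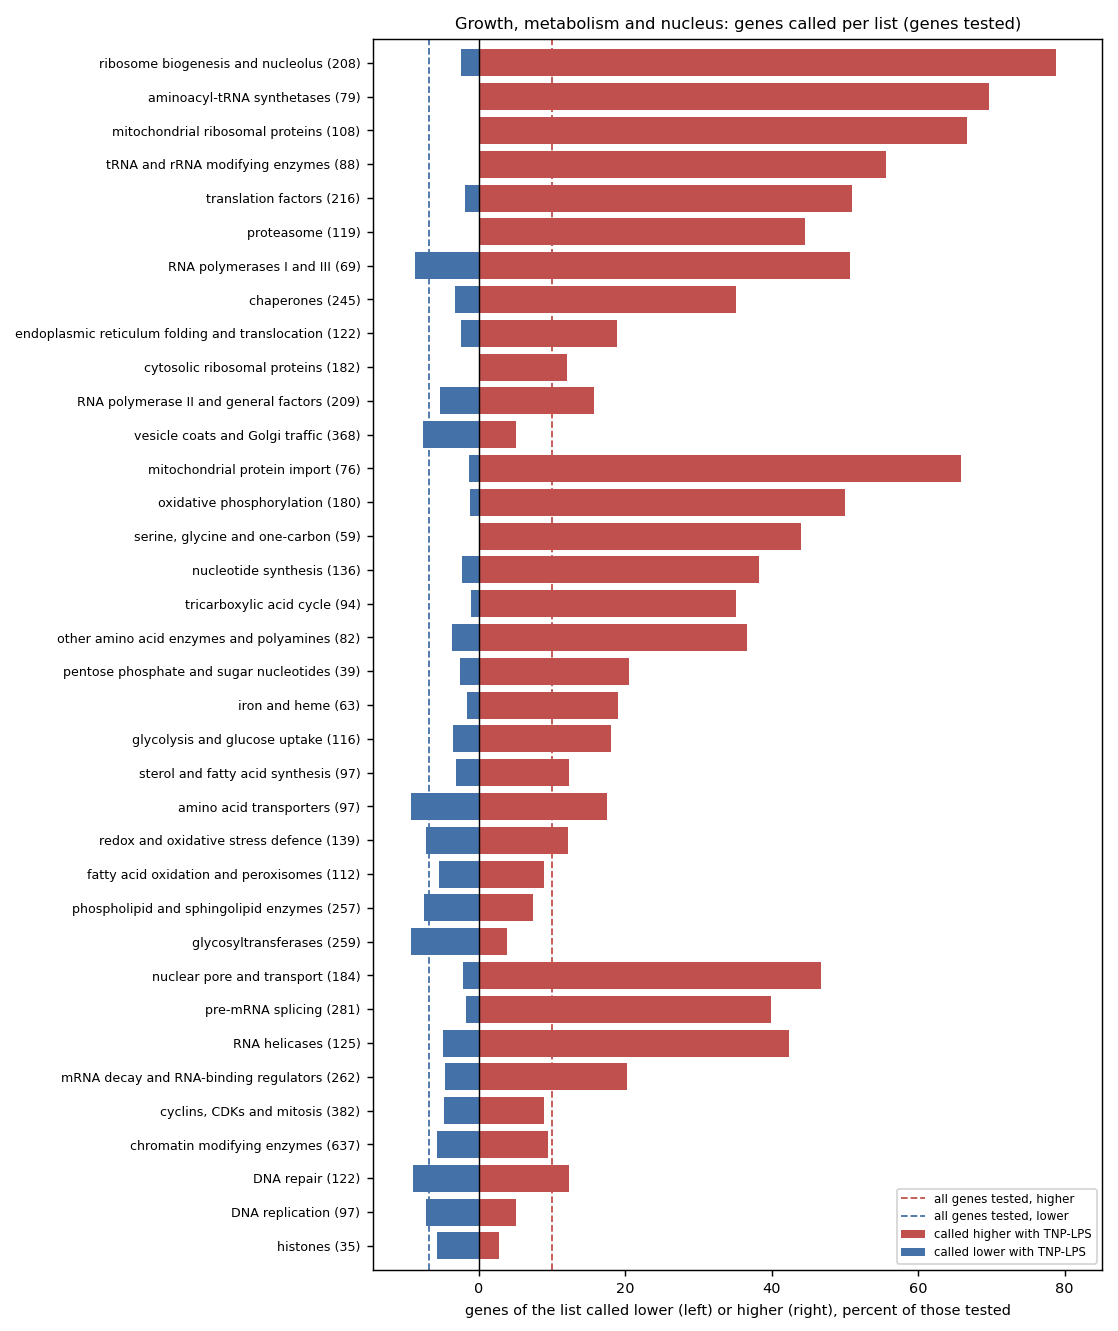
Bars give, for each gene group of growth, metabolism and the nucleus, the percentage of its tested genes called higher (right) or lower (left) with TNP-LPS, and dashed lines mark the percentages over all 31691 genes, 10.0% higher and 6.73% lower. Ribosome biogenesis stands at the far right with 78.8% of its genes higher.

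Of the cytosolic ribosomal protein genes, 22 of 182 tested genes rose (12.1%) and 0 fell, with the share of risen genes near the 10.0% over all genes. Their median log2 fold change was 0.31, a median that was 0.06 when libraries were scaled to their totals. Acidic ribosomal protein P0 (GSONMG00076978001) rose from 2764, 2555 and 3415 CPM to 6385, 4905 and 4786 CPM, a log2 fold change of 0.88 ± 0.20 SE at an adjusted p of 0.015, and 40S ribosomal protein S2 (GSONMG00007231001) from 2630.4, 2798 and 3001 CPM to 7239.6, 5829 and 5313 CPM, a log2 fold change of 1.12 ± 0.21 SE at an adjusted p of 0.0053. Of the mitochondrial ribosomal protein genes, 72 of 108 tested genes rose and 0 fell, with a median log2 fold change of 1.32. Of the translation factors, 110 of 216 tested genes rose and 4 fell, with a median log2 fold change of 0.99. The cap-binding factor eIF4E (GSONMG00070171001) had 32.7, 40.1 and 40.9 CPM in the control libraries and 236, 191 and 178 CPM with TNP-LPS, a log2 fold change of 2.41 ± 0.21 SE at an adjusted p of 0.00023. Its inhibitor, a 4E-binding protein (GSONMG00013271001), had 62.6, 52 and 73.1 CPM in the control libraries and 17.5, 10.7 and 21.6 CPM with TNP-LPS, a log2 fold change of -1.91 ± 0.29 SE at an adjusted p of 0.0018. The kinase that inactivates elongation factor 2, eEF2K (GSONMG00035582001), had 10.6, 8.05 and 13.7 CPM in the control libraries and 0.776, 0.951 and 2.51 CPM with TNP-LPS, a log2 fold change of -2.89 ± 0.46 SE at an adjusted p of 0.0022. The eIF4E gene was thus higher in every TNP-LPS library, and the genes of both inhibitory proteins were lower in every one. Among aminoacyl-tRNA synthetases, which load tRNAs with amino acids, 55 of 79 tested genes rose and 0 fell, with a median log2 fold change of 1.54. Arginine tRNA ligase (GSONMG00081369001) had 45.5, 41.9 and 40.3 CPM in the control libraries and 247, 190.1 and 218 CPM with TNP-LPS, a log2 fold change of 2.36 ± 0.19 SE at an adjusted p of 0.00023, and the tryptophan and valine ligases rose by 2.34 (GSONMG00063218001) and 2.22 (GSONMG00028601001) on the log2 scale. Of the 6 groups of growth and metabolism described in the text with no gene called lower by edgeR, 3 had 1 gene lower at an unadjusted p under 0.05 (tRNA and rRNA modifying enzymes, cytosolic ribosomal proteins, one-carbon genes), the rest had none, and DESeq2 called none in any of them, while the block called 1 or 2 lower in 4 of them. Blocking on replicate number gave 37 higher cytosolic ribosomal protein genes in place of 22, 2 lower cytosolic ribosomal protein genes in place of 0 and 8 lower translation factors in place of 4. In fits lacking 1 library, the 0 lower cytosolic ribosomal protein genes became 1 without TNP-LPS 1.

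Many genes of protein folding and turnover rose as well. Of the chaperones, 86 of 245 tested genes rose and 8 fell, with a median log2 fold change of 0.49. The mitochondrial HSP70, stress-70 protein (GSONMG00077339001), had 151, 142 and 131 CPM in the control libraries and 1055, 1014 and 969.8 CPM with TNP-LPS, a log2 fold change of 2.84 ± 0.18 SE at an adjusted p of 0.00019. Cytosolic HSP90 beta (GSONMG00079391001) had 544, 489 and 575 CPM in the control libraries and 2143, 1771 and 1777 CPM with TNP-LPS, a log2 fold change of 1.82 ± 0.18 SE at an adjusted p of 0.00028, and the alpha subunit of the chaperonin TCP1 (GSONMG00054445001), which folds actin and tubulin, had 584, 544 and 659 CPM in the control libraries and 2168, 1769.8 and 1887 CPM with TNP-LPS, a log2 fold change of 1.70 ± 0.19 SE at an adjusted p of 0.0004. The groups were far apart for all 3, with mitochondrial HSP70 the largest of these differences. Of the genes described as T-complex protein subunits, 16 of 21 rose. Of the proteasome genes, 53 of 119 tested genes rose and 0 fell, with a median log2 fold change of 1.07. Proteasome activator subunit 3 (GSONMG00013072001), the nuclear PA28 gamma, had 10.7, 11 and 11.8 CPM in the control libraries and 82.3, 61.2 and 47.1 CPM with TNP-LPS, a log2 fold change of 2.50 ± 0.24 SE at an adjusted p of 0.00024. In the group of endoplasmic reticulum folding and translocation, 23 of 122 tested genes rose and 3 fell, with a median log2 fold change of 0.46. Of vesicle coat and Golgi genes, 19 of 368 tested genes rose (5.16%) and 28 fell (7.61%), against 10.0% and 6.73% over all genes. Their median log2 fold change was 0.05 (-0.17 when scaled to library totals). The block changed calls to 17 lower chaperones in place of 8, 88 higher proteasome genes in place of 53, 1 lower proteasome gene in place of 0, 45 higher endoplasmic reticulum genes in place of 23, 5 lower endoplasmic reticulum genes in place of 3, 58 higher vesicle coat and Golgi genes in place of 19 and 44 lower vesicle coat and Golgi genes in place of 28. After removal of 1 library, the 8 lower chaperones became 2 to 5 without control 2, control 3, TNP-LPS 1, TNP-LPS 2 or TNP-LPS 3, the 23 higher endoplasmic reticulum genes became 13 to 15 without control 2, control 3, TNP-LPS 1 or TNP-LPS 3, the 3 lower endoplasmic reticulum genes became 1 without control 1, the 19 higher vesicle coat and Golgi genes became 11 without TNP-LPS 3 and the 28 lower vesicle coat and Golgi genes became 16 to 17 without TNP-LPS 1, TNP-LPS 2 or TNP-LPS 3. The direction with more calls turned for vesicle coat and Golgi genes (58 higher and 44 lower with the block).

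Many genes of mitochondria rose. Of the mitochondrial protein import genes, 50 of 76 tested genes rose and 1 fell, with a median log2 fold change of 1.45, and an inner membrane translocase gene (GSONMG00075645001) had 10.01, 11.9 and 7.0 CPM in the control libraries and 78.3, 66 and 66.3 CPM with TNP-LPS, a log2 fold change of 2.86 ± 0.24 SE at an adjusted p of 0.00023. Prohibitin (GSONMG00072622001), a scaffold of the inner membrane, had 85.7, 93.4 and 86.7 CPM in the control libraries and 437, 400.0 and 331 CPM with TNP-LPS, a log2 fold change of 2.13 ± 0.19 SE at an adjusted p of 0.00023. Of the oxidative phosphorylation genes, 90 of 180 tested genes rose and 2 fell, with a median log2 fold change of 0.91. Among the fallen genes was cytochrome c oxidase subunit 8B (GSONMG00012179001), with 10.1, 10.6 and 13.1 CPM in the control libraries and 1.09, 0.211 and 0.464 CPM with TNP-LPS, a log2 fold change of -4.32 ± 0.47 SE at an adjusted p of 0.00039, whose TNP-LPS values rest on few reads. In the tricarboxylic acid cycle, 33 of 94 tested genes rose and 1 fell, with a median log2 fold change of 0.90, with mitochondrial malate dehydrogenase (GSONMG00016374001) at 1.80 and aconitase (GSONMG00036576001) at 1.74. Glycolysis and glucose uptake had fewer calls: 21 of 116 tested genes rose and 4 fell, with a median log2 fold change of 0.11 (-0.12 when scaled to library totals). Hexokinase-2 (GSONMG00057336001), which traps glucose in the cell, had 8.6, 10.1 and 7.16 CPM in the control libraries and 41.9, 42.6 and 39.5 CPM with TNP-LPS, a log2 fold change of 2.26 ± 0.19 SE at an adjusted p of 0.00023. Pyruvate dehydrogenase kinase 3 (GSONMG00027187001), which shuts the entry of pyruvate into the mitochondrial cycle, had 9.71, 11.7 and 11.9 CPM in the control libraries and 3.26, 4.33 and 5.76 CPM with TNP-LPS, a log2 fold change of -1.31 ± 0.26 SE at an adjusted p of 0.008. The values of neither gene overlapped between groups. The replicate block gave 3 lower mitochondrial import genes in place of 1 and 7 lower glycolysis genes in place of 4. With 1 library left out, the 1 lower mitochondrial import gene became 0 without TNP-LPS 3, the 90 higher oxidative phosphorylation genes became 53 to 55 without control 3 or TNP-LPS 1, the 2 lower oxidative phosphorylation genes became 1 without control 1, control 2, control 3, TNP-KLH 1, TNP-LPS 2 or TNP-LPS 3, the 33 higher tricarboxylic acid cycle genes became 18 to 21 without control 3, TNP-LPS 1 or TNP-LPS 3 and the 4 lower glycolysis genes became 1 to 2 without control 1, control 3, TNP-KLH 1, TNP-KLH 3, TNP-LPS 1, TNP-LPS 2 or TNP-LPS 3.

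Genes for building blocks were among the risen too. Of the nucleotide synthesis group, 52 of 136 tested genes rose and 3 fell, with a median log2 fold change of 0.71. Uridine monophosphate synthase (GSONMG00071029001), which completes pyrimidine synthesis, had 30.8, 29.6 and 30.03 CPM in the control libraries and 271, 182 and 155 CPM with TNP-LPS, a log2 fold change of 2.75 ± 0.25 SE at an adjusted p of 0.00023, and CTP synthase 1 (GSONMG00018874001) had 28, 35.1 and 30.5 CPM in the control libraries and 213, 177 and 163 CPM with TNP-LPS, a log2 fold change of 2.56 ± 0.20 SE at an adjusted p of 0.00023. Of the serine, glycine and one-carbon genes, 26 of 59 tested genes rose and 0 fell, with a median log2 fold change of 1.46. The cytosolic C1-tetrahydrofolate synthase (GSONMG00034931001) had 33.9, 32.2 and 33.6 CPM in the control libraries and 168, 182 and 161 CPM with TNP-LPS, a log2 fold change of 2.36 ± 0.18 SE at an adjusted p of 0.00023. Its mitochondrial counterpart (GSONMG00015219001) had 45.4, 34.6 and 25.4 CPM in the control libraries and 190.1, 245 and 217 CPM with TNP-LPS, a log2 fold change of 2.63 ± 0.25 SE at an adjusted p of 0.00024, and the bifunctional methylenetetrahydrofolate dehydrogenase (GSONMG00074922001) had 54, 44.4 and 42.9 CPM in the control libraries and 199, 243 and 265 CPM with TNP-LPS, a log2 fold change of 2.32 ± 0.22 SE at an adjusted p of 0.00024. For all 3 folate genes the lowest TNP-LPS value was more than 3 times the highest control value. Spermidine synthase (GSONMG00066357001), which makes a polyamine, rose by 1.83 on the log2 scale, and diamine acetyltransferase 1 (GSONMG00040408001), which breaks polyamines down, had 236, 501 and 314 CPM in the control libraries and 75.2, 92.2 and 92 CPM with TNP-LPS, a log2 fold change of -2.02 ± 0.40 SE at an adjusted p of 0.0072. The large neutral amino acid transporter LAT1 (GSONMG00080047001) had 25, 13.6 and 22.9 CPM in the control libraries and 121, 145 and 162 CPM with TNP-LPS, a log2 fold change of 2.80 ± 0.26 SE at an adjusted p of 0.00024, while cationic amino acid transporter 3 (GSONMG00041068001) had 56.1, 32.6 and 64.5 CPM in the control libraries and 10.6, 7.29 and 11.5 CPM with TNP-LPS, a log2 fold change of -2.38 ± 0.39 SE at an adjusted p of 0.0026. Over all amino acid transporters, 17 of 97 rose and 9 fell. In lipid synthesis, fatty acid synthase (GSONMG00062364001) had 31.8, 26.4 and 22.9 CPM in the control libraries and 119, 135 and 152 CPM with TNP-LPS, a log2 fold change of 2.32 ± 0.21 SE at an adjusted p of 0.00023. Of the sterol and fatty acid synthesis group, 12 of 97 tested genes rose (12.4%) and 3 fell, with a median log2 fold change of 0.32. That share of risen genes was near the 10.0% over all genes. Transferrin receptor 1 (GSONMG00062454001), the route of iron into the cell, had 74.2, 81.4 and 90.2 CPM in the control libraries and 326, 354 and 406 CPM with TNP-LPS, a log2 fold change of 2.14 ± 0.19 SE at an adjusted p of 0.00023. Thioredoxin-interacting protein (GSONMG00062121001), which holds back glucose uptake in mammals, had 151, 250.4 and 146 CPM in the control libraries and 61.5, 51.2 and 49.6 CPM with TNP-LPS, a log2 fold change of -1.76 ± 0.29 SE at an adjusted p of 0.0028. With the replicate block, calls came to 6 lower nucleotide synthesis genes in place of 3, 2 lower one-carbon genes in place of 0, 17 lower amino acid transporters in place of 9, 26 higher sterol and fatty acid genes in place of 12 and 5 lower sterol and fatty acid genes in place of 3. Leaving out 1 library, the 3 lower nucleotide synthesis genes became 1 without TNP-LPS 2 or TNP-LPS 3 and the 9 lower amino acid transporters became 3 to 5 without control 1 or TNP-LPS 3.

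In the nucleus, many genes of RNA processing and transport rose. Of the splicing genes, 112 of 281 tested genes rose and 5 fell, with a median log2 fold change of 0.63, of the RNA helicases 53 of 125 rose and 6 fell, and of the nuclear pore and transport genes, 86 of 184 tested genes rose and 4 fell, with a median log2 fold change of 0.93. Importin-4 (GSONMG00017955001), which carries histones and ribosomal proteins into the nucleus, had 72.7, 45.4 and 76.5 CPM in the control libraries and 521, 389 and 427 CPM with TNP-LPS, a log2 fold change of 2.78 ± 0.25 SE at an adjusted p of 0.00023. RuvB-like 2 (GSONMG00078153001), an ATPase of chromatin remodelling and particle assembly, had 37, 34.3 and 34.1 CPM in the control libraries and 277, 223 and 211 CPM with TNP-LPS, a log2 fold change of 2.75 ± 0.20 SE at an adjusted p of 0.00023, and its partner RuvB-like 1 (GSONMG00075833001) had 33.7, 28.8 and 24.7 CPM in the control libraries and 221, 166 and 150.1 CPM with TNP-LPS, a log2 fold change of 2.62 ± 0.24 SE at an adjusted p of 0.00023. Arginine methyltransferase 1 (GSONMG00041468001) had 167, 143 and 150.0 CPM in the control libraries and 1131, 746 and 761 CPM with TNP-LPS, a log2 fold change of 2.52 ± 0.22 SE at an adjusted p of 0.00023, and the Polycomb histone methyltransferase EZH2 (GSONMG00023729001) had 20.9, 19.3 and 16.7 CPM in the control libraries and 4.81, 4.86 and 5.38 CPM with TNP-LPS, a log2 fold change of -1.92 ± 0.24 SE at an adjusted p of 0.00063. EZH2 thus fell in every TNP-LPS library, and the other 4 genes rose in every one. Among chromatin modifying enzymes as a whole, 60 of 637 rose (9.42%) and 36 fell (5.65%), near the 10.0% and 6.73% over all genes. Blocking on replicate number gave 16 lower splicing genes in place of 5, 12 lower RNA helicases in place of 6, 9 lower nuclear pore genes in place of 4, 111 higher chromatin genes in place of 60 and 95 lower chromatin genes in place of 36. In fits lacking 1 library, the 5 lower splicing genes became 2 without TNP-LPS 2, the 4 lower nuclear pore genes became 2 without control 2, TNP-LPS 1, TNP-LPS 2 or TNP-LPS 3 and the 36 lower chromatin genes became 22 to 23 without control 3 or TNP-LPS 1. The direction with more calls turned for chromatin genes (42 higher and 48 lower when scaled to library totals).

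Of the DNA replication genes, 5 of 97 tested genes rose (5.15%) and 7 fell (7.22%), with a median log2 fold change of 0.26. The share of risen genes was below the 10.0% over all genes, and that of fallen genes was near the 6.73%. The risen genes included 3 subunits of the MCM helicase, which opens replication origins: MCM6 (GSONMG00008031001) with 17.7, 33.3 and 18 CPM in the control libraries and 109, 137 and 77.1 CPM with TNP-LPS, a log2 fold change of 2.23 ± 0.38 SE at an adjusted p of 0.0032, MCM4 (GSONMG00069247001) at a log2 fold change of 1.74 and MCM2 (GSONMG00038273001) at 1.76. CDC45 (GSONMG00067676001), which joins the MCM helicase when it fires, had 2.83, 8.36 and 3.11 CPM in the control libraries and 0.776, 0.317 and 0.743 CPM with TNP-LPS, a log2 fold change of -2.95 ± 0.58 SE at an adjusted p of 0.0072, at a low level in all libraries. Of the cyclin, CDK and mitosis genes, 34 of 382 tested genes rose (8.90%) and 18 fell (4.71%), with a median log2 fold change of -0.27. Both shares were below the 10.0% and 6.73% over all genes. Cyclin-dependent kinase 4 (GSONMG00012312001), which drives G1 in mammals, had 26.9, 27.8 and 29.6 CPM in the control libraries and 84, 86.9 and 73.2 CPM with TNP-LPS, a log2 fold change of 1.53 ± 0.18 SE at an adjusted p of 0.00056, and the pocket protein RBL2 (GSONMG00019505001), linked to the resting state, had 44.6, 59.6 and 40.9 CPM in the control libraries and 9.63, 13.6 and 14.4 CPM with TNP-LPS, a log2 fold change of -1.94 ± 0.26 SE at an adjusted p of 0.00097. CDK4 and RBL2 did not overlap between groups and moved in opposite directions. Of the 35 histone genes, 1 rose and 2 fell. The block changed calls to 22 higher DNA replication genes in place of 5, 64 higher cyclin, CDK and mitosis genes in place of 34, 73 lower cyclin, CDK and mitosis genes in place of 18, 4 higher histone genes in place of 1 and 8 lower histone genes in place of 2. After removal of 1 library, the 5 higher DNA replication genes became 9 without control 1, the 7 lower DNA replication genes became 3 to 4 without control 2, TNP-LPS 2 or TNP-LPS 3, the 1 higher histone gene became 2 without control 2, TNP-LPS 1 or TNP-LPS 3 and the 2 lower histone genes became 0 to 1 without control 2, TNP-KLH 1, TNP-KLH 2, TNP-LPS 1, TNP-LPS 2 or TNP-LPS 3. The larger of the counts changed sides for DNA replication genes (22 higher and 9 lower with the block), DNA replication genes (4 higher and 0 lower without the libraries numbered 2), cyclin, CDK and mitosis genes (64 higher and 73 lower with the block), cyclin, CDK and mitosis genes (23 higher and 25 lower when scaled to library totals) and histone genes (1 higher and 0 lower without the libraries numbered 2).

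A few inflammatory mediators rose. Of the chemokines and chemokine receptors, 5 of 53 tested genes rose (9.43%) and 2 fell (3.77%), with a median log2 fold change of -0.12. Over all genes tested, 10.0% rose and 6.73% fell, so neither share was above the background. CCL4 is given above. Among receptors, CCR7, the homing receptor for lymphoid tissue in mammals, rose in 3 copies, of which GSONMG00017247001 had 43.3, 33.3 and 24.7 CPM in the control libraries and 142, 226 and 158 CPM with TNP-LPS, a log2 fold change of 2.37 ± 0.33 SE at an adjusted p of 0.0012, and GSONMG00049598001 had 14.4, 10.7 and 10.8 CPM in the control libraries and 50.5, 87.5 and 69.4 CPM with TNP-LPS, a log2 fold change of 2.53 ± 0.31 SE at an adjusted p of 0.00062. CCR4 (GSONMG00030070001) had 7.18, 4.18 and 7.47 CPM in the control libraries and 0.466, 1.06 and 0.836 CPM with TNP-LPS, a log2 fold change of -2.95 ± 0.47 SE at an adjusted p of 0.0022. Both CCR7 genes were thus higher in every TNP-LPS library, and CCR4, at a low level, was lower in every one. Of the interleukins, growth factors and their receptors, 8 of 104 tested genes rose (7.69%) and 5 fell (4.81%). Both shares were below the background, and the median log2 fold change was 0.02 (-0.22 when scaled to library totals). An interleukin-1 beta gene (GSONMG00003908001), a pyrogenic cytokine, had 0.506, 1.15 and 0.545 CPM in the control libraries and 8.7, 34.2 and 18.2 CPM with TNP-LPS, a log2 fold change of 4.80 ± 0.74 SE at an adjusted p of 0.0019. The interleukin-21 receptor (GSONMG00034639001), which takes a T cell signal that supports plasma cells in mammals, had 21.4, 14 and 5.91 CPM in the control libraries and 206, 162 and 77.9 CPM with TNP-LPS, a log2 fold change of 3.43 ± 0.58 SE at an adjusted p of 0.0033. A class 2 beta subunit of the interleukin-3 receptor (GSONMG00026522001) had 1.11, 2.72 and 2.88 CPM in the control libraries and 11, 22.2 and 18.8 CPM with TNP-LPS, a log2 fold change of 2.94 ± 0.40 SE at an adjusted p of 0.001. Every control value of these 3 genes was under every TNP-LPS value. The 2 lowest fold changes of the group were copies of the thrombopoietin receptor (GSONMG00048176001, -3.95, and GSONMG00024376001, -3.88), which also stand in the thrombocyte marker list below. The replicate block gave 9 higher chemokine genes in place of 5, 5 lower chemokine genes in place of 2, 17 higher interleukin and growth factor genes in place of 8 and 22 lower interleukin and growth factor genes in place of 5. With 1 library left out, the 2 lower chemokine genes became 1 without control 1, TNP-KLH 1, TNP-KLH 3, TNP-LPS 1, TNP-LPS 2 or TNP-LPS 3 and the 5 lower interleukin and growth factor genes became 2 to 3 without control 1, control 3, TNP-KLH 1, TNP-KLH 3, TNP-LPS 1 or TNP-LPS 3. The balance of calls turned for interleukin and growth factor genes (17 higher and 22 lower with the block).

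TNF family genes were called in both directions. Of TNF ligands, receptors and TRAF adaptors, 10 of 68 tested genes rose (14.7%) and 6 fell (8.82%), with a median log2 fold change of -0.11. These shares stand against 10.0% and 6.73% over all genes. A TNF gene (GSONMG00010221001) had 8.6, 14.8 and 7.93 CPM in the control libraries and 52.5, 172 and 94.1 CPM with TNP-LPS, a log2 fold change of 3.35 ± 0.48 SE at an adjusted p of 0.0014. TRAF1 (GSONMG00001226001), an adaptor of TNF receptors that NF-kB induces in mammals, had 8.6, 14.7 and 14.7 CPM in the control libraries and 127, 401 and 154 CPM with TNP-LPS, a log2 fold change of 4.16 ± 0.55 SE at an adjusted p of 0.00091, and TRAF2 (GSONMG00070533001) had 32.1, 26.1 and 34.1 CPM in the control libraries and 110.1, 122 and 73.8 CPM with TNP-LPS, a log2 fold change of 1.73 ± 0.25 SE at an adjusted p of 0.0013. The paper, by contrast, reports 1 TRAF2 gene as upregulated only by TNP-KLH, and another TRAF2 gene with significantly lower transcript levels after TNP-LPS. Whether the TRAF2 gene given here is the former was not checked. For TNF and TRAF1, TNP-LPS replicate 2 was the highest library. Further ligands fell. BAFF, named TNF ligand superfamily member 13B (GSONMG00026860001), which keeps mammalian B cells alive, had 76.8, 106 and 36.9 CPM in the control libraries and 8.85, 6.34 and 8.63 CPM with TNP-LPS, a log2 fold change of -3.20 ± 0.39 SE at an adjusted p of 0.00059, and member 12, TWEAK (GSONMG00066797001), had 10.7, 17 and 12.3 CPM in the control libraries and 1.09, 0.211 and 0.743 CPM with TNP-LPS, a log2 fold change of -4.32 ± 0.47 SE at an adjusted p of 0.00039. In both, the highest TNP-LPS value was under the lowest control value. Leaving out 1 library, the 10 higher TNF and TRAF genes became 6 without TNP-LPS 2 and the 6 lower TNF and TRAF genes became 2 to 3 without control 1, TNP-LPS 2 or TNP-LPS 3.

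**Figure D2:**
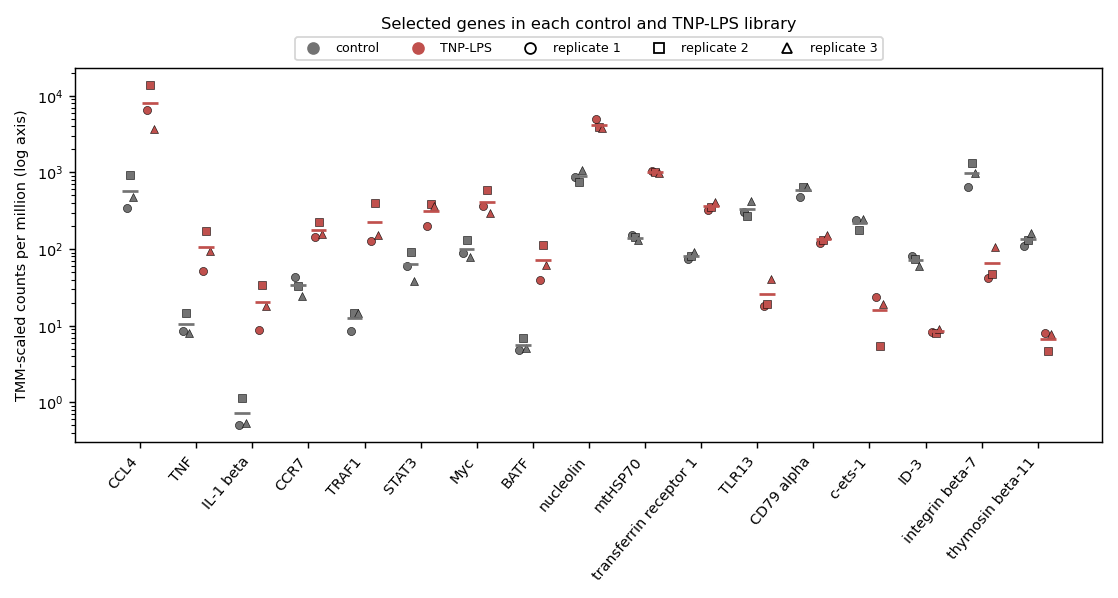
Points give the CPM of 17 genes (log axis) in each of the 3 control and 3 TNP-LPS libraries, 1 colour for a group and 1 marker shape for each replicate number, and short lines at the group means. No gene has a TNP-LPS library inside the control range, since genes were named only where the groups did not overlap. The genes run from CCL4 at 339, 914 and 476 CPM in controls and 6542, 13702 and 3738 CPM with TNP-LPS to thymosin beta-11 at 110.1, 132 and 162 CPM and 7.92, 4.65 and 7.8 CPM.

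Downstream of cytokine receptors, 14 of 64 JAK, STAT and SOCS genes rose and 1 fell, with a median log2 fold change of 0.41. STAT3, which carries interleukin-6 and interleukin-21 signals in mammals, rose in its copies GSONMG00061965001, with 60.6, 92.2 and 38.8 CPM in the control libraries and 201, 384 and 363 CPM with TNP-LPS, a log2 fold change of 2.31 ± 0.37 SE at an adjusted p of 0.0025, and GSONMG00002706001, with 20.02, 23.6 and 18.7 CPM in the control libraries and 75.6, 131 and 137 CPM with TNP-LPS, a log2 fold change of 2.46 ± 0.31 SE at an adjusted p of 0.00076. SOCS6 (GSONMG00073706001) was the gene that fell, at a log2 fold change of -1.48, while a SOCS7 gene (GSONMG00029220001) rose by 2.06. Of the NF-kB pathway and feedback group, 5 of 68 tested genes rose (7.35%) and 6 fell (8.82%), with a median log2 fold change of -0.12. These shares stand against 10.0% and 6.73% over all genes. TNFAIP3-interacting protein 2 (GSONMG00056196001), a brake on NF-kB, had 8.9, 12.2 and 31.3 CPM in the control libraries and 64.9, 144 and 106 CPM with TNP-LPS, a log2 fold change of 2.58 ± 0.49 SE at an adjusted p of 0.0062. The NF-kB subunit p100 (GSONMG00080517001) had 259.5, 187 and 324 CPM in the control libraries and 447, 559 and 564 CPM with TNP-LPS, a log2 fold change of 1.03 ± 0.24 SE at an adjusted p of 0.016, a call lost without TNP-LPS replicate 2 or TNP-LPS replicate 3. The interferon group had 8 of 128 genes higher and 2 lower, below the background of 10.0% higher over all genes. With the block, 25 of 128 were higher, above the 16.3% over all genes in that fit. Without the block, a guanylate-binding protein (GSONMG00048182001) was among the risen and interferon regulatory factors 6 (GSONMG00069921001) and 10 (GSONMG00002238001) were the fallen, at log2 fold changes of 1.69, -3.16 and -2.03. Blocking on replicate number gave 23 higher JAK, STAT and SOCS genes in place of 14, 5 lower JAK, STAT and SOCS genes in place of 1, 16 higher NF-kB genes in place of 5, 11 lower NF-kB genes in place of 6, 25 higher interferon genes in place of 8 and 14 lower interferon genes in place of 2. In fits lacking 1 library, the 14 higher JAK, STAT and SOCS genes became 5 to 9 without control 1, control 3, TNP-KLH 1, TNP-LPS 2 or TNP-LPS 3, the 1 lower JAK, STAT and SOCS gene became 2 without control 2 or TNP-LPS 2, the 5 higher NF-kB genes became 2 to 8 without control 1, control 3, TNP-LPS 2 or TNP-LPS 3 and the 8 higher interferon genes became 3 to 5 without control 3, TNP-LPS 1 or TNP-LPS 2. The larger of the counts changed sides for NF-kB genes (16 higher and 11 lower with the block).

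Many receptors that recognise microbes fell, and none of the 3 families below had a gene called higher by edgeR without the block, while with it 4 toll-like receptor genes and 3 NOD-like receptors were. At an unadjusted p under 0.05, edgeR had 2 toll-like receptor genes, 0 NOD-like receptors and 0 C-type lectins higher, and DESeq2 called 1, 0 and 0. Of the toll-like receptors and their adaptors, 9 of 30 fell, with a median log2 fold change of -0.73. Toll-like receptor 13, a sensor of bacterial ribosomal RNA in the mouse, fell in its copies GSONMG00041579001, with 301, 267 and 429 CPM in the control libraries and 18.2, 19.4 and 40.5 CPM with TNP-LPS, a log2 fold change of -3.67 ± 0.40 SE at an adjusted p of 0.00036, and GSONMG00054145001, with 60.3, 84.4 and 70.8 CPM in the control libraries and 4.19, 4.01 and 10.03 CPM with TNP-LPS, a log2 fold change of -3.55 ± 0.39 SE at an adjusted p of 0.0004. Toll-like receptor 2 (GSONMG00020614001), which binds bacterial lipoproteins in mammals, had 43.5, 17.5 and 27.8 CPM in the control libraries and 2.17, 1.16 and 2.23 CPM with TNP-LPS, a log2 fold change of -3.99 ± 0.43 SE at an adjusted p of 0.00036. The TNP-LPS values of these 3 genes were all far under the lowest control value. Of the NOD-like receptors, 28 of 131 fell (median -0.54), for example an NLRP12-like gene (GSONMG00016741001) with 24.4, 31.6 and 29.8 CPM in the control libraries and 7.92, 7.92 and 8.36 CPM with TNP-LPS, a log2 fold change of -1.82 ± 0.18 SE at an adjusted p of 0.00028, and an NLRP3-like gene (GSONMG00036772001) with 39.4, 32.9 and 47.3 CPM in the control libraries and 11.2, 9.29 and 11.7 CPM with TNP-LPS, a log2 fold change of -1.89 ± 0.22 SE at an adjusted p of 0.00045. Such genes are numerous and alike in fish, so reads may be split between copies. Of the C-type lectins, 5 of 51 fell (9.80%), not far from the 6.73% over all genes. Among them was a CD209-like gene (GSONMG00073428001) with 28.7, 36.2 and 33.5 CPM in the control libraries and 8.23, 6.13 and 8.45 CPM with TNP-LPS, a log2 fold change of -2.11 ± 0.22 SE at an adjusted p of 0.00034. The block changed calls to 4 higher toll-like receptor genes in place of 0, 3 higher NOD-like receptor genes in place of 0, 47 lower NOD-like receptor genes in place of 28 and 9 lower C-type lectins in place of 5. After removal of 1 library, the 0 higher toll-like receptor genes became 1 without TNP-LPS 3, the 28 lower NOD-like receptor genes became 18 without TNP-LPS 3 and the 5 lower C-type lectins became 3 without TNP-LPS 1 or TNP-LPS 2.

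A part of the B cell receptor signalling genes fell as well. Of 81 tested genes 0 rose by edgeR without the block (2 with it, 1 at an unadjusted p under 0.05, 0 by DESeq2) and 22 fell, with a median log2 fold change of -0.68. The receptor chain CD79 alpha had 2 genes that fell, GSONMG00053375001 with 479, 642 and 652 CPM in the control libraries and 119, 131 and 151 CPM with TNP-LPS, a log2 fold change of -2.14 ± 0.26 SE at an adjusted p of 0.00059, and GSONMG00019605001 with 214, 253 and 252 CPM in the control libraries and 63.2, 79.2 and 70.6 CPM with TNP-LPS, a log2 fold change of -1.75 ± 0.25 SE at an adjusted p of 0.0014. The adaptor BLNK (GSONMG00016155001) had 165, 242 and 108 CPM in the control libraries and 34.3, 16.5 and 26 CPM with TNP-LPS, a log2 fold change of -2.75 ± 0.38 SE at an adjusted p of 0.0011. The control values of these genes were more than 2 times every TNP-LPS value. The PI3K adaptor PIK3AP1 (GSONMG00078101001), known as BCAP, had 34.2, 34.8 and 31.9 CPM in the control libraries and 7.92, 6.97 and 9.0 CPM with TNP-LPS, a log2 fold change of -2.07 ± 0.18 SE at an adjusted p of 0.00023, and RASGRP2 (GSONMG00012774001), an activator of the GTPase Rap, had 133, 155 and 152 CPM in the control libraries and 44.6, 31.3 and 44.2 CPM with TNP-LPS, a log2 fold change of -1.87 ± 0.21 SE at an adjusted p of 0.00044. Further along the route to NF-kB, MALT1 (GSONMG00071655001) had 109, 122 and 87.7 CPM in the control libraries and 29.7, 22.4 and 46.5 CPM with TNP-LPS, a log2 fold change of -1.70 ± 0.28 SE at an adjusted p of 0.0029. The groups did not overlap for any of these genes. The replicate block gave 2 higher B cell receptor signalling genes in place of 0 and 39 lower B cell receptor signalling genes in place of 22.

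In other signalling groups more genes fell than rose in the fit of all libraries. Of the regulators of small GTPases, 75 of 446 fell and 6 rose, and the family of dedicator of cytokinesis genes, exchange factors of Rac and Cdc42, had 17 of 73 lower. Of the MAP kinase group, 9 of 166 tested genes rose and 25 fell, with a median log2 fold change of -0.38, and MAP4K4 (GSONMG00077352001) had 53.7, 45.1 and 53 CPM in the control libraries and 5.9, 5.39 and 4.92 CPM with TNP-LPS, a log2 fold change of -3.23 ± 0.19 SE at an adjusted p of 0.00019. Of PI3K, Akt and mTOR genes, 9 of 155 tested genes rose and 22 fell, with a median log2 fold change of -0.20, with a RAC-alpha kinase (Akt1) gene (GSONMG00019402001) among the risen at a log2 fold change of 2.79. The sphingosine 1-phosphate receptor 4 gene (GSONMG00075704001) had 127, 55.1 and 92.1 CPM in the control libraries and 8.23, 5.49 and 11.1 CPM with TNP-LPS, a log2 fold change of -3.46 ± 0.37 SE at an adjusted p of 0.00033, and P2Y8 (GSONMG00009016001), a receptor that confines germinal centre B cells in humans, had 9.61, 21 and 14 CPM in the control libraries and 90.8, 134 and 83.8 CPM with TNP-LPS, a log2 fold change of 2.79 ± 0.42 SE at an adjusted p of 0.0017. The groups did not overlap for either receptor, and the 2 moved in opposite directions. With the replicate block, calls came to 22 higher small GTPase regulators in place of 6, 141 lower small GTPase regulators in place of 75, 16 higher MAP kinase genes in place of 9, 45 lower MAP kinase genes in place of 25 and 22 higher PI3K genes in place of 9. Leaving out 1 library, the 6 higher small GTPase regulators became 3 without TNP-LPS 2, the 75 lower small GTPase regulators became 45 without TNP-LPS 2, the 9 higher MAP kinase genes became 3 to 5 without control 1, TNP-LPS 2 or TNP-LPS 3 and the 22 lower PI3K genes became 6 to 14 without control 1, control 2, control 3, TNP-LPS 1, TNP-LPS 2 or TNP-LPS 3. The larger of the counts changed sides for PI3K genes (6 higher and 3 lower without the libraries numbered 2).

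**Figure D3:**
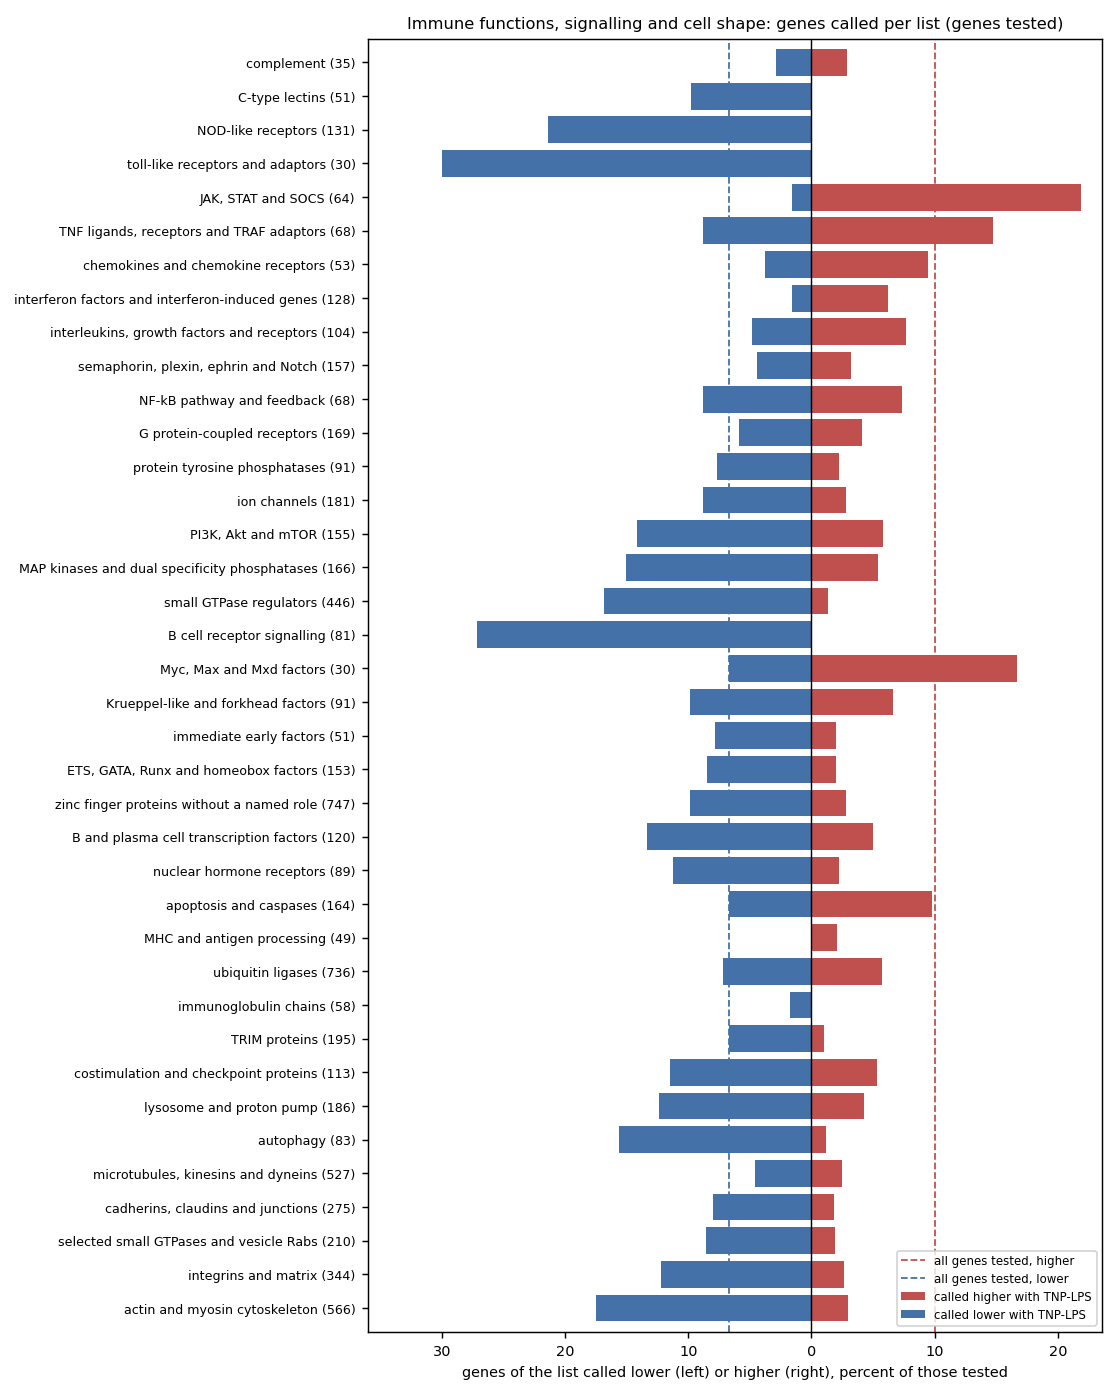
Bars give, for each gene group of recognition, cytokines, signalling, transcription factors, B cell function and cell shape, the percentage of its tested genes called higher (right) or lower (left) with TNP-LPS, with dashed lines at the percentages over all genes, 10.0% higher and 6.73% lower. In the cytokine groups the bar for higher genes is the longer, as for JAK, STAT and SOCS genes at 21.9% higher and 1.56% lower. In most of the other groups the bar for lower genes is the longer, with 9 of 30 toll-like receptors and B cell receptor signalling at 27.2% of genes lower.

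Of the transcription factors of B and plasma cells, 6 of 120 tested genes rose (5%) and 16 fell (13.3%), with a median log2 fold change of -0.45. The share of risen genes was below the 10.0% over all genes, and that of fallen genes was above the 6.73%. Counts of genes of a single factor, from BATF to IRF8, take only the 85 genes of this group with a mean of at least 5 CPM in either group. BATF, a bZIP factor of lymphocyte activation, rose in both its genes, GSONMG00032340001 with 4.75, 7.0 and 5.13 CPM in the control libraries and 40.1, 112 and 62.8 CPM with TNP-LPS, a log2 fold change of 3.67 ± 0.42 SE at an adjusted p of 0.00044, and GSONMG00014984001 with 1.11, 2.72 and 0.933 CPM in the control libraries and 13.5, 43.9 and 8.73 CPM with TNP-LPS, a log2 fold change of 3.81 ± 0.66 SE at an adjusted p of 0.0038. BHLHE40 (GSONMG00056975001) had 33.8, 21.8 and 38.3 CPM in the control libraries and 68.6, 199.7 and 146 CPM with TNP-LPS, a log2 fold change of 2.14 ± 0.41 SE at an adjusted p of 0.0063, the only one of 4 genes of that name called higher. ID-3, which blocks E proteins, fell in both its genes, GSONMG00015698001 with 81.7, 73.8 and 59.7 CPM in the control libraries and 8.38, 8.13 and 9.19 CPM with TNP-LPS, a log2 fold change of -3.06 ± 0.22 SE at an adjusted p of 0.00023, and GSONMG00060835001 with 62.5, 110.5 and 91.5 CPM in the control libraries and 6.68, 8.24 and 11.9 CPM with TNP-LPS, a log2 fold change of -3.29 ± 0.37 SE at an adjusted p of 0.0004. The factor c-ets-1 fell in 3 of 5 genes, and GSONMG00033861001 had 238, 176 and 244 CPM in the control libraries and 23.8, 5.49 and 19.2 CPM with TNP-LPS, a log2 fold change of -3.77 ± 0.57 SE at an adjusted p of 0.0018. Aiolos and Ikaros, zinc finger factors of lymphoid identity, each fell in both their genes (log2 fold changes -1.80 to -1.62 and -1.18 to -1.05), EBF1, named COE1, in 2 of 4, and the coactivator POU2AF1 (GSONMG00031682001) had 238, 226 and 238 CPM in the control libraries and 95.5, 82.7 and 115 CPM with TNP-LPS, a log2 fold change of -1.26 ± 0.20 SE at an adjusted p of 0.0023. No gene of PRDM1, the mammalian regulator of plasma cell fate, was called by edgeR among its 5 (0 at an unadjusted p under 0.05, 0 by DESeq2, log2 fold changes 0.22 to 2.49), and with the block 4 of them rose. IRF4 (6 genes, -1.25 to 1.04) and IRF8 (5 genes, -1.28 to 0.10) had no call either, 0 and 1 genes being under an unadjusted p of 0.05 and 0 and 0 called by DESeq2, with 1 IRF4 gene higher and 2 IRF8 genes lower with the block. Of the Myc, Max and Mxd factors, 5 of 30 tested genes rose (16.7%) and 2 fell (6.67%), with a median log2 fold change of 0.19 (-0.01 when scaled to library totals). Myc (GSONMG00068469001) had 89.9, 133 and 79.8 CPM in the control libraries and 367, 586 and 296 CPM with TNP-LPS, a log2 fold change of 2.05 ± 0.39 SE at an adjusted p of 0.0057, a Myc-2-like gene (GSONMG00066548001) had 30.3, 37.4 and 25.4 CPM in the control libraries and 199, 243 and 188 CPM with TNP-LPS, a log2 fold change of 2.76 ± 0.28 SE at an adjusted p of 0.0003, and Mxd1 (GSONMG00043478001), an antagonist of Myc, had 3.03, 4.7 and 4.67 CPM in the control libraries and 0.155, 0.634 and 0.743 CPM with TNP-LPS, a log2 fold change of -2.93 ± 0.58 SE at an adjusted p of 0.0072. Both Myc genes were at least 2 times as high in every TNP-LPS library as in any control, and Mxd1 was near the detection floor with TNP-LPS. Of the immediate early factors, 1 of 51 rose (1.96%) and 4 fell (7.84%), EGR3 (GSONMG00079010001) with 66.4, 28.2 and 102 CPM in the control libraries and 15.2, 18.6 and 8.45 CPM with TNP-LPS, a log2 fold change of -2.22 ± 0.49 SE at an adjusted p of 0.012. Blocking on replicate number gave 17 higher B and plasma cell factors in place of 6, 40 lower B and plasma cell factors in place of 16, 8 higher Myc, Max and Mxd factors in place of 5, 4 lower Myc, Max and Mxd factors in place of 2, 6 higher immediate early factors in place of 1 and 17 lower immediate early factors in place of 4. In fits lacking 1 library, the 6 higher B and plasma cell factors became 3 without TNP-LPS 3, the 16 lower B and plasma cell factors became 10 without TNP-LPS 2, the 5 higher Myc, Max and Mxd factors became 2 to 3 without control 1, control 2, TNP-LPS 2 or TNP-LPS 3, the 2 lower Myc, Max and Mxd factors became 1 without control 1, control 3, TNP-KLH 1, TNP-LPS 1, TNP-LPS 2 or TNP-LPS 3, the 1 higher immediate early factor became 0 to 3 without control 1, control 2, TNP-KLH 1, TNP-KLH 2, TNP-LPS 1, TNP-LPS 2 or TNP-LPS 3 and the 4 lower immediate early factors became 1 to 2 without control 2, control 3, TNP-LPS 1 or TNP-LPS 2.

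**Figure D4:**
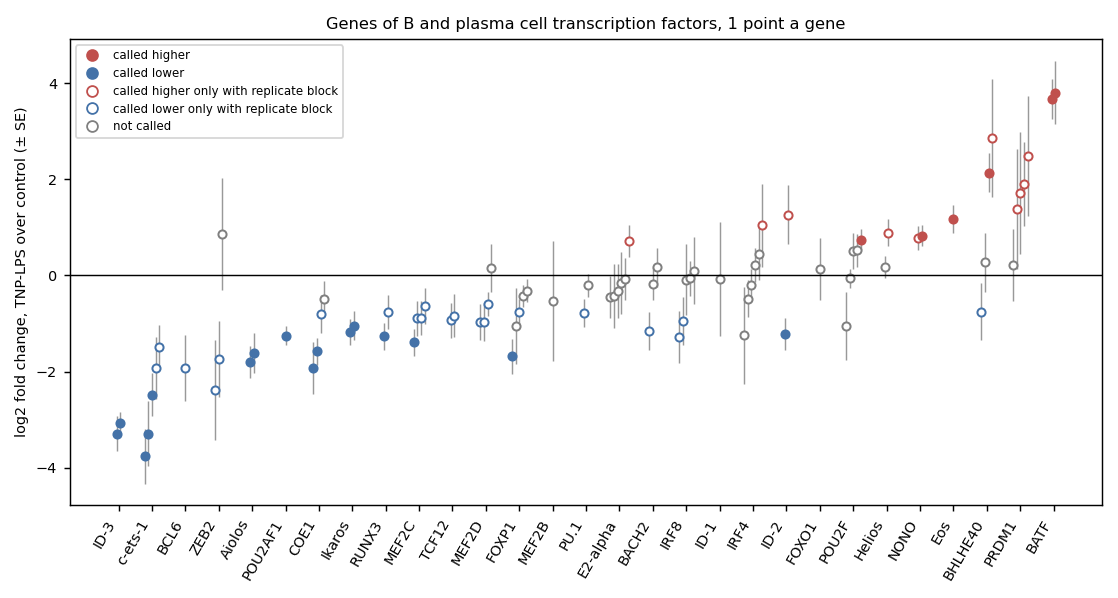
Each point is the log2 fold change of 1 gene, TNP-LPS over control, grouped by transcription factor, with the call marked by colour. Only genes with a mean of at least 5 CPM in either group are drawn. The BATF genes lie at 3.67 and 3.81, the ID-3 genes at -3.29 and -3.06, and the c-ets-1 genes from -3.77 to -1.48.

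Genes of antibody and antigen presentation held few calls without the replicate block. Of the immunoglobulin chain genes, 0 of 58 rose (0 at an unadjusted p under 0.05 and 0 by DESeq2) and 1 fell, a kappa light chain-like gene (GSONMG00036712001) with 611, 686 and 350.0 CPM in the control libraries and 203, 212 and 157 CPM with TNP-LPS, a log2 fold change of -1.53 ± 0.35 SE at an adjusted p of 0.015, a call lost without control replicate 2 or TNP-LPS replicate 3. Immunoglobulin chain genes together took 4.01, 2.73 and 0.901% of the reads in the control libraries and 3.4, 1.06 and 0.599% with TNP-LPS, with the libraries numbered 1 highest and those numbered 3 lowest in both groups. Of the MHC and antigen processing genes, 1 of 49 rose and 0 fell, against 3 and 3 at an unadjusted p under 0.05 and 2 and 1 by DESeq2. The risen gene encodes an invariant chain-like protein (GSONMG00023357001), the chaperone of MHC class II, with 379, 569 and 574 CPM in the control libraries and 1621, 1513 and 1213 CPM with TNP-LPS, a log2 fold change of 1.51 ± 0.25 SE at an adjusted p of 0.0029. Of costimulation and checkpoint proteins, 6 of 113 tested genes rose (5.31%) and 13 fell (11.5%), with a median log2 fold change of -0.39. CD97 antigen (GSONMG00041164001), an adhesion receptor, had 81.5, 113 and 112 CPM in the control libraries and 11.2, 7.39 and 7.8 CPM with TNP-LPS, a log2 fold change of -3.54 ± 0.26 SE at an adjusted p of 0.00023, and the immune regulators CD276 (GSONMG00034756001) and OX-2, or CD200 (GSONMG00057094001), rose by 1.94 and 2.54 on the log2 scale. The block changed calls to 1 higher immunoglobulin chain gene in place of 0, 6 lower immunoglobulin chain genes in place of 1, 9 higher MHC genes in place of 1, 3 lower MHC genes in place of 0, 13 higher costimulation genes in place of 6 and 21 lower costimulation genes in place of 13. After removal of 1 library, the 1 lower immunoglobulin chain gene became 0 to 3 without control 2, TNP-LPS 1 or TNP-LPS 3, the 1 higher MHC gene became 2 without control 2, control 3 or TNP-LPS 2 and the 13 lower costimulation genes became 8 without TNP-LPS 2.

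Among degradation and death pathways, 23 of 186 lysosome genes fell and 8 rose, and 13 of 83 autophagy genes fell and 1 rose. ULK1 (GSONMG00075554001), the kinase that starts autophagy, had 25.6, 39.7 and 22.5 CPM in the control libraries and 6.06, 5.28 and 8.08 CPM with TNP-LPS, a log2 fold change of -2.17 ± 0.32 SE at an adjusted p of 0.0016. Of the apoptosis and caspase group, 16 of 164 tested genes rose (9.76%) and 11 fell (6.71%), with a median log2 fold change of -0.05. These shares were close to the 10.0% and 6.73% over all genes. MLKL, the executioner of necroptosis in mammals, fell in genes with consecutive identifiers, GSONMG00034079001, with 203, 245 and 204 CPM in the control libraries and 46.1, 58.4 and 59.1 CPM with TNP-LPS, a log2 fold change of -1.99 ± 0.20 SE at an adjusted p of 0.00028, and GSONMG00034078001, at -2.17, which may share reads. BIRC2, named baculoviral IAP repeat-containing protein 2 (GSONMG00035912001), an inhibitor of death signals at TNF receptors, rose by 1.27. The replicate block gave 18 higher lysosome genes in place of 8, 44 lower lysosome genes in place of 23, 5 higher autophagy genes in place of 1, 28 lower autophagy genes in place of 13, 33 higher apoptosis genes in place of 16 and 26 lower apoptosis genes in place of 11. With 1 library left out, the 8 higher lysosome genes became 3 to 5 without control 1, control 2, control 3, TNP-KLH 2, TNP-KLH 3, TNP-LPS 1, TNP-LPS 2 or TNP-LPS 3, the 23 lower lysosome genes became 15 without TNP-LPS 2 or TNP-LPS 3, the 1 higher autophagy gene became 0 without control 1, TNP-LPS 1 or TNP-LPS 2, the 13 lower autophagy genes became 8 without TNP-LPS 2 and the 16 higher apoptosis genes became 7 to 10 without control 3 or TNP-LPS 2. The larger of the counts changed sides for apoptosis genes (10 higher and 14 lower when scaled to library totals).

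In the actin, integrin and junction groups, far more genes were lower than higher. Of microtubule, kinesin and dynein genes, 13 of 527 rose (2.47%) and 24 fell (4.55%), both shares below the 10.0% and 6.73% over all genes. These microtubule counts became 45 and 75 with the block. Without the libraries numbered 2 their balance turned, with 13 higher and 8 lower, and without control 1, 20 were higher. Of the actin and myosin group, 17 of 566 tested genes rose and 99 fell, with a median log2 fold change of -0.53. Thymosin beta-11 (GSONMG00072989001), of a family that binds monomeric actin, had 110.1, 132 and 162 CPM in the control libraries and 7.92, 4.65 and 7.8 CPM with TNP-LPS, a log2 fold change of -4.31 ± 0.31 SE at an adjusted p of 0.00023, and gamma-adducin (GSONMG00058025001), which caps filaments beneath the membrane, had 395, 434 and 380.2 CPM in the control libraries and 60.7, 66.4 and 89.9 CPM with TNP-LPS, a log2 fold change of -2.48 ± 0.22 SE at an adjusted p of 0.00023. Of the integrin and matrix group, which shares 8 of its called genes with the thrombocyte markers given below, 9 of 344 tested genes rose and 42 fell, with a median log2 fold change of -0.70, and integrin beta-2 (GSONMG00075139001), the shared chain of leukocyte integrins, had 752, 981 and 809 CPM in the control libraries and 182, 182 and 244 CPM with TNP-LPS, a log2 fold change of -2.07 ± 0.21 SE at an adjusted p of 0.0003. Of the cadherins, claudins and junction genes, 5 of 275 tested genes rose (1.82%) and 22 fell (8%), with a median log2 fold change of -0.60. The share of fallen genes was near the 6.73% over all genes, and that of risen genes was below the 10.0%. A claudin-4-like gene (GSONMG00008826001) had 129, 209 and 88.7 CPM in the control libraries and 14.8, 7.92 and 11.1 CPM with TNP-LPS, a log2 fold change of -3.66 ± 0.39 SE at an adjusted p of 0.00034. The groups were apart for each of these 4 genes, and thymosin beta-11 fell furthest. With the replicate block, calls came to 31 higher actin and myosin genes in place of 17, 152 lower actin and myosin genes in place of 99, 16 higher integrin and matrix genes in place of 9, 68 lower integrin and matrix genes in place of 42 and 8 higher junction genes in place of 5. Leaving out 1 library, the 17 higher actin and myosin genes became 11 without TNP-LPS 3, the 99 lower actin and myosin genes became 62 without TNP-LPS 2, the 9 higher integrin and matrix genes became 3 to 5 without control 1, control 3, TNP-LPS 2 or TNP-LPS 3, the 42 lower integrin and matrix genes became 20 to 27 without TNP-LPS 1, TNP-LPS 2 or TNP-LPS 3, the 5 higher junction genes became 3 without control 1, control 3 or TNP-LPS 2 and the 22 lower junction genes became 12 without TNP-LPS 2.

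A few genes were read in 1 group only. Of the genes called lower, 21 had no read in any TNP-LPS library, and of those called higher, 9 had none in any control library. Formin-2 (GSONMG00005957001), an actin nucleator, was at 2.22, 3.24 and 2.49 CPM in the control libraries, at least 23.6-fold higher against a floor of 3 counts over the TNP-LPS group. Vitamin D receptor B (GSONMG00081045001) was at 2.63, 2.4 and 2.88 CPM, at least 23.5-fold higher by the same floor. Both were low in absolute terms. In the other direction C1QTNF7 (GSONMG00030838001), a secreted C1q domain protein, was at 1.86, 1.06 and 0.743 CPM with TNP-LPS, at least 13.1-fold higher against a floor of 3 counts over the control group, and copine-4 (GSONMG00039580001) at 1.24, 2.75 and 1.11 CPM, at least 18.3-fold higher, a call lost without TNP-LPS replicate 1 or TNP-LPS replicate 2. PTPN22 (GSONMG00022978001), a phosphatase that restrains antigen receptor signals in mammals, was nearly so, with 6.47, 4.91 and 5.29 CPM in the control libraries and 0, 0 and 0.0928 CPM with TNP-LPS.

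Read by description alone, 148 families shared the opening words of their name and had at least 20 tested genes. The highest shares of risen genes were those of nucleolar protein (20 of 22), RNA polymerase III subunit, T-complex protein and mitochondrial import inner membrane translocase (22 of 30). The highest shares of fallen genes were those of toll-like receptor (8 of 21), adenylate cyclase type (7 of 20) and the NACHT, LRR and PYD domain proteins.

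The sorted cells were checked against markers of B cells and of other spleen cells. The B cell marker genes took 0.436, 0.493 and 0.477% of the reads in control libraries and 0.203, 0.255 and 0.235% with TNP-LPS, and 7 of 42 fell with none higher, the CD79 genes, BLNK, POU2AF1 and COE1 given above among them. Erythrocyte markers took 0.085, 0.916 and 0.0568% in controls and 0.0361, 0.055 and 0.015% with TNP-LPS, with control replicate 2 far above the others. TAL1 (GSONMG00014789001) stands in that list too, and was at a similar level in all 3 controls, with 414, 428 and 386 CPM in the control libraries and 59.2, 60.5 and 93.9 CPM with TNP-LPS, a log2 fold change of -2.52 ± 0.24 SE at an adjusted p of 0.00023. The reads of this gene are counted in the erythrocyte shares above, and were a large part of them in control replicates 1 and 3. Thrombocyte markers took 0.0186, 0.0591 and 0.0294% in controls and 0.00927, 0.00857 and 0.0104% with TNP-LPS, and 11 of 38 fell (median log2 fold change -2.23). Without the libraries numbered 2, 2 of them fell (median -1.49), and the erythrocyte median moved from -3.36 to -0.44. T and NK cell markers took 0.00971, 0.0225 and 0.0068% in controls and 0.00737, 0.00623 and 0.00434% with TNP-LPS, with 1 gene called higher and 2 lower of 32. Genes of these lists with too few reads to be tested numbered 10 for T and NK cells, 13 for thrombocytes, 47 for monocytes and 21 for erythrocytes. Monocyte and macrophage markers had 3 of 75 genes higher and 7 lower, neutrophil markers 2 higher and 1 lower of 28, and endothelium and stroma markers 2 higher and 11 lower of 73. Monocyte markers took 0.146, 0.195 and 0.15% of reads in controls and 0.12, 0.111 and 0.108% with TNP-LPS, and endothelium markers 0.043, 0.067 and 0.0705% and 0.019, 0.0221 and 0.0244%. Their part in the other gene groups was not tested. Without the number 2 libraries, 1743 genes were called higher and 756 lower, 145 ribosome biogenesis genes were higher, and 7 toll-like receptor and 12 B cell receptor signalling genes were lower. Blocking on replicate number gave 14 lower B cell markers in place of 7, 1 higher erythrocyte marker in place of 0, 33 lower erythrocyte markers in place of 3, 9 lower T and NK cell markers in place of 2, 4 higher neutrophil markers in place of 2, 7 lower neutrophil markers in place of 1, 19 lower thrombocyte markers in place of 11, 6 higher monocyte markers in place of 3, 20 lower monocyte markers in place of 7, 4 higher endothelium markers in place of 2 and 17 lower endothelium markers in place of 11. In fits lacking 1 library, the 3 lower erythrocyte markers became 1 without TNP-LPS 2 or TNP-LPS 3, the 2 lower T and NK cell markers became 1 without control 1, control 2, TNP-LPS 1, TNP-LPS 2 or TNP-LPS 3, the 2 higher neutrophil markers became 0 to 1 without control 1, control 3, TNP-KLH 3, TNP-LPS 1, TNP-LPS 2 or TNP-LPS 3, the 1 lower neutrophil marker became 0 to 2 without control 1, control 2, control 3, TNP-KLH 1, TNP-KLH 2, TNP-KLH 3 or TNP-LPS 3, the 11 lower thrombocyte markers became 2 to 7 without control 2, TNP-KLH 2, TNP-KLH 3, TNP-LPS 1, TNP-LPS 2 or TNP-LPS 3, the 7 lower monocyte markers became 3 without TNP-LPS 2, the 2 higher endothelium markers became 1 without control 1, control 2 or TNP-LPS 2 and the 11 lower endothelium markers became 4 to 7 without control 3, TNP-LPS 1, TNP-LPS 2 or TNP-LPS 3. The direction with more calls turned for T and NK cell markers (1 higher and 0 lower without the libraries numbered 2) and neutrophil markers (4 higher and 7 lower with the block).

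**Figure D5:**
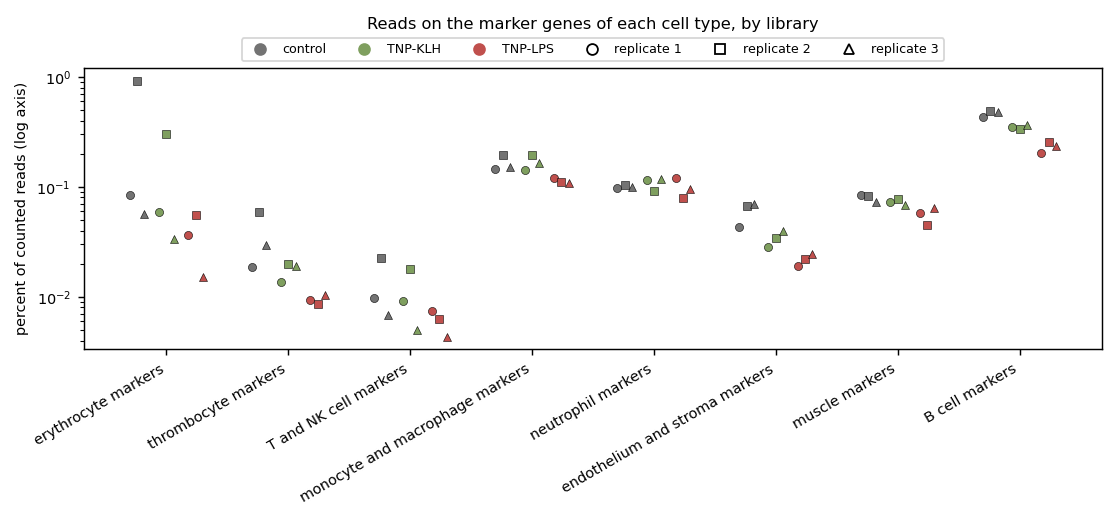
Points give the percentage of counted reads (log axis) that fell on the marker genes of each cell type in each of the 9 libraries, TNP-KLH included. B cell markers lie at 0.436, 0.493 and 0.477% in controls and lower, at 0.203, 0.255 and 0.235%, with TNP-LPS, while erythrocyte markers reach 0.916% in control replicate 2.

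Medians were also taken within each same-numbered pair for all 82 gene groups, of which some are given here. They are of differences in log2 CPM with a prior count of 2, a measure unlike the group medians above. The median log2 difference of ribosome biogenesis genes was 2.24, 2.08 and 1.72 in pairs 1, 2 and 3, that of mitochondrial protein import 1.53, 1.33 and 1.38, and that of B cell receptor signalling -0.68, -0.66 and -0.83. Toll-like receptors had -0.30, -0.62 and -0.07. No pair was opposite in sign to the others for any of these 4 groups, though pair 3 of the toll-like receptors showed almost no difference. In other groups pairs did differ in sign. Cytosolic ribosomal proteins had 0.71, 0.18 and -0.02, DNA replication genes 0.54, -0.07 and 0.40, and immunoglobulin chains 0.17, -0.95 and -0.17.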

How the data were processed

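RNA-seq was made from sorted IgM+ B cells of 9 cultures with a stranded kit. The deposited count of reads per gene stands alike in 3 tables. The authors mapped reads to the Genoscope trout genome (TopHat) and counted them (SAMtools, HTSeq). Tool versions and whether strand was used in counting were not given in the sources used here, so overlapping antisense genes may not be told apart. A further 7 columns per table hold the authors' own DESeq comparison (group means, fold changes and p-values) and were not used.

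Counts were tested with edgeR 4.0.16 in R 4.3.3 (quasi-likelihood test, TMM factors, 1 factor of 3 groups over 9 libraries, Benjamini-Hochberg adjustment over 31691 genes, threshold 0.05). TMM factors ran from 0.797 to 1.10, with 1.07, 1.04 and 1.06 in the control libraries and 0.797, 0.949 and 0.972 with TNP-LPS. The common biological coefficient of variation was 0.446. On simulated data of this comparison with 31691 genes, 100 of 100 genes changed 4-fold were recovered and 46 of 100 changed 2-fold, so smaller changes may be missed. The simulated spread was set smaller than that of the data, and the changed genes were drawn from well-counted genes only. These shares may therefore be too high for the real libraries, and genes with few reads were not covered. The alternatives were a replicate block, 6 libraries, RLE factors, other filters, DESeq2 1.42.0, leaving out each library or those numbered 2, and leaving out erythrocyte genes. A fit without TMM factors was added after seeing the data.

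Deviations from the group means correlated by 0.227 to 0.645 in all pairs of libraries of the same number. Libraries were therefore taken as paired by number in the block fits and the medians by pair, on the data and not on the labels. The main fit had no block and so ignored this pairing. It gave the fold changes, SE and adjusted p of the named genes and the group counts, unless the block is named. The reference table matched 0 of the 46585 identifiers, so no coordinate or sequence is given.

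Members and the 82 gene lists, which were matched on words in the descriptions, were chosen with earlier results of these data known. Genes were named by rule, mainly the up to 3 called genes in each direction with the smallest p in each list, the called genes with the largest difference in mean CPM, those with 0 reads in 1 group, the leading genes of families of descriptions, and B and plasma cell transcription factors. The transcription factors were limited to genes with a mean of at least 5 CPM in either group. Groups had to be free of overlap unless stated. Some genes chosen in this way are not reported here.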

Additional observations from a re-analysis of the deposited data

How the results depend on the processing

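With the replicate number as a block, 5167 genes were higher and 4489 lower in place of 3181 and 2133, and with 6 libraries and the block 4277 and 3415. Leaving out each library in turn gave 2404 to 2913 higher and 1238 to 1885 lower, the fewest without TNP-LPS replicate 2. Without the 3 libraries numbered 2, 1743 were higher and 756 lower, from fewer samples. Library totals without TMM factors, chosen after seeing the data, gave 2305 higher and 2860 lower. The TMM factor of every TNP-LPS library was below that of every control library, so leaving the factors out lowered the fold changes. Why the factors differed between the groups was not tested. No named gene reversed in any fit that tested it, edgeR's own filter leaving 2 untested and the fit without erythrocyte genes 1. Of 132 named genes, 132 kept their call with the block, with 6 libraries and by DESeq2, 113 without the libraries numbered 2, 130 to 132 with 1 library left out and 131 without TMM factors. The lost one there was the NF-kB p100 gene GSONMG00080517001. Since most named genes were chosen for a small p on the same libraries, their stability does not describe all calls. Of all 5314 calls, 57.6% held in each of the 9 fits that left out 1 library. With 2-fold changes often missed at this replicate number, a gene without a call is not shown to be unchanged.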
